A study of Mus musculus with 7 samples.

Results

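The genes described here are 37 genes of the extracellular matrix and of the enzymes and factors that process it, taken by gene symbol from a list of named members among the 54532 genes of the table. They comprise 5 genes of collagen processing and cross-linking, 12 collagen chains, 5 laminin chains, 7 glycoproteins and proteoglycans, 5 proteases and their inhibitors, and 3 growth factors. Poly(A) RNA from mouse eyes was sequenced in 3 groups that differ in the gene Agbl5, which encodes a tubulin deglutamylase: 3 knockout libraries, 2 heterozygous libraries and 2 wildtype libraries. Tissue is given as eyeball on the sample records and as retina in the RNA extraction protocol. The way the allele was made, and the strain, sex and age of the mice, are not given in the sources used here. All values are FPKM, fragments scaled to gene length and to the size of the library, as the authors deposited them, so levels can be set side by side between genes.

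The extracellular matrix is the protein scaffold outside cells. Fibrillar collagens are secreted as procollagens whose ends are trimmed by proteases, a step that the Pcolce protein enhances, and are then cross-linked by lysyl oxidases. Basement membranes are sheets in which type IV collagen and laminin form networks, and in the eye they line the inner retinal surface, the retinal vessels, the pigment epithelium and the lens, whose capsule is a thick basement membrane. Matrix metalloproteinases cut matrix proteins and TIMP proteins inhibit them, while TGF-beta factors and Ctgf regulate the making of matrix.

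Library size, estimated from the steps between low FPKM values, was 13052142 to 15080548 reads. At that size 1 read on 1 kb was worth 0.0663 to 0.0766 FPKM. Whole reads recovered from the FPKM came to 12238268 to 14327633 per library, over the 32117 genes recovered in every library. Agbl5 itself was at 1.51 ± 0.233 FPKM in knockout libraries (SD, n = 3), 4.78 ± 0.805 in heterozygous and 9.23 ± 0.935 in wildtype libraries (SD, n = 2 each), in the order of the labels. The rod and cone marker list had a mean log2 level of 8.45 to 8.61 over the 7 libraries. The knockout 1 and heterozygous 1 libraries stood apart as rich in lens RNA: Cryaa, a lens crystallin gene, was at 2541 FPKM in knockout 1 and 1733 FPKM in heterozygous 1, and at 1.11 to 12.3 FPKM in the other 5. Xist was at 158 FPKM in knockout 3 and 181 FPKM in wildtype 2, where the 4 Y-linked genes of the sex list were at 0, and the other 5 libraries expressed those Y-linked genes with Xist near 0, so the knockout and the wildtype groups each held libraries of both sexes. The labels do not say that replicates were separate animals, so the p-values measure the spread between these samples, which may be technical.

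The matrix genes covered a wide range of levels. Vtn, which encodes the adhesive glycoprotein vitronectin, was the highest, with 331 ± 7.51 FPKM in knockout libraries (SD, n = 3), 325 ± 13.3 in heterozygous and 343 ± 21.4 in wildtype libraries (SD, n = 2 each). In all, 12 of the 37 genes averaged 10 FPKM or more across libraries, 21 lay between 1 and 10 FPKM, and 4 lay under 1 FPKM. The 4 low genes were Col1a1 (0.301 to 1.53 FPKM), Col3a1 (0.0505 to 0.555), Lox (0.0760 to 0.199) and Tgfb1 (0.184 to 0.407). They were left out of the tests, which required an average of 1 FPKM or more, so 33 of the 37 were tested. The highest heterozygous value of Col1a1 and of Col3a1, the main chains of type I and type III collagen in connective tissue, was in the lens-rich library.

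**Figure D1:**
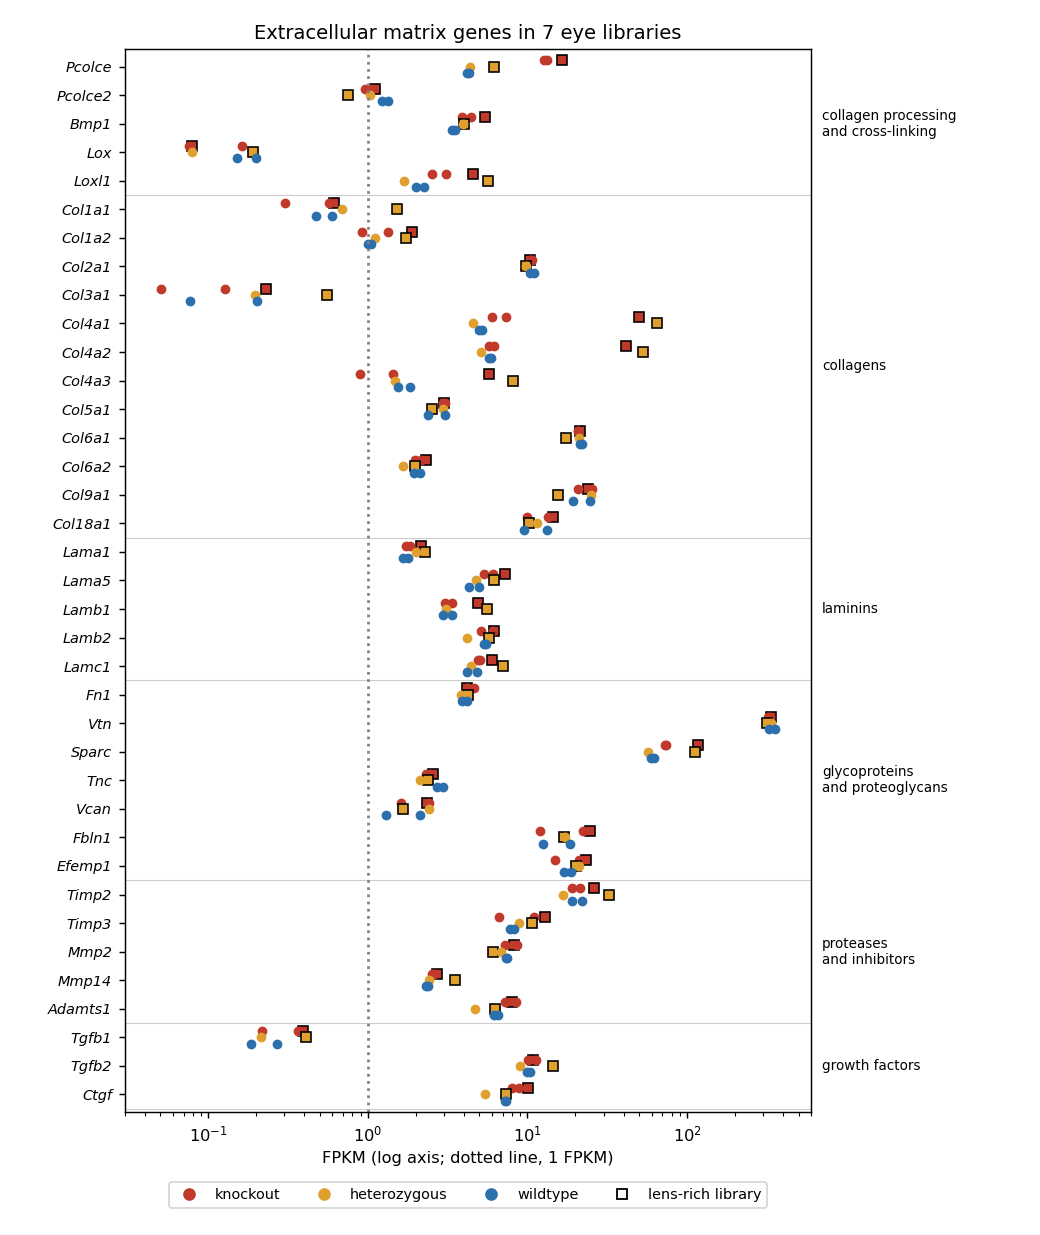
FPKM of the 37 matrix genes in the 7 libraries, on a log axis, grouped by role. Each point is 1 library, coloured by genotype, and squares mark the lens-rich libraries knockout 1 and heterozygous 1. Pcolce has its 3 knockout points (12.7 to 16.6 FPKM) to the right of its 4 control points (4.18 to 6.20 FPKM), and the squares of Col4a1, Col4a2 and Col4a3 lie far to the right of the other 5 libraries.

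Between knockout and all 4 control libraries, limma on log2(FPKM + 1) with Benjamini-Hochberg adjustment over 15472 genes called 1 of the 33 tested matrix genes higher and 0 lower, against 0.614% of all tested genes called in either direction, 0.465% higher and 0.149% lower. That gene was Pcolce. An unadjusted p below 0.05 was found for 3 matrix genes of 33, against 1891 of all 15472 tested genes. By voom on read counts recovered from the FPKM, 1 matrix gene was called, against 150 of 14788 genes. The knockout values lay entirely above the control values for 3 matrix genes, Pcolce, Adamts1 and Ctgf, and entirely below them for 0, against 6.75% of all tested genes above and 6.26% below. The log2 change was above 0 for 26 of the 33, with a median of 0.11, and the median over all tested genes was 0.00. On a TPM scale, where the values of each library are rescaled to the same sum, the median over all genes moved to -0.12 and 19 of the 33 lay above 0, of which Pcolce was still called, while 25 lay above the median of all genes.

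**Figure D2:**
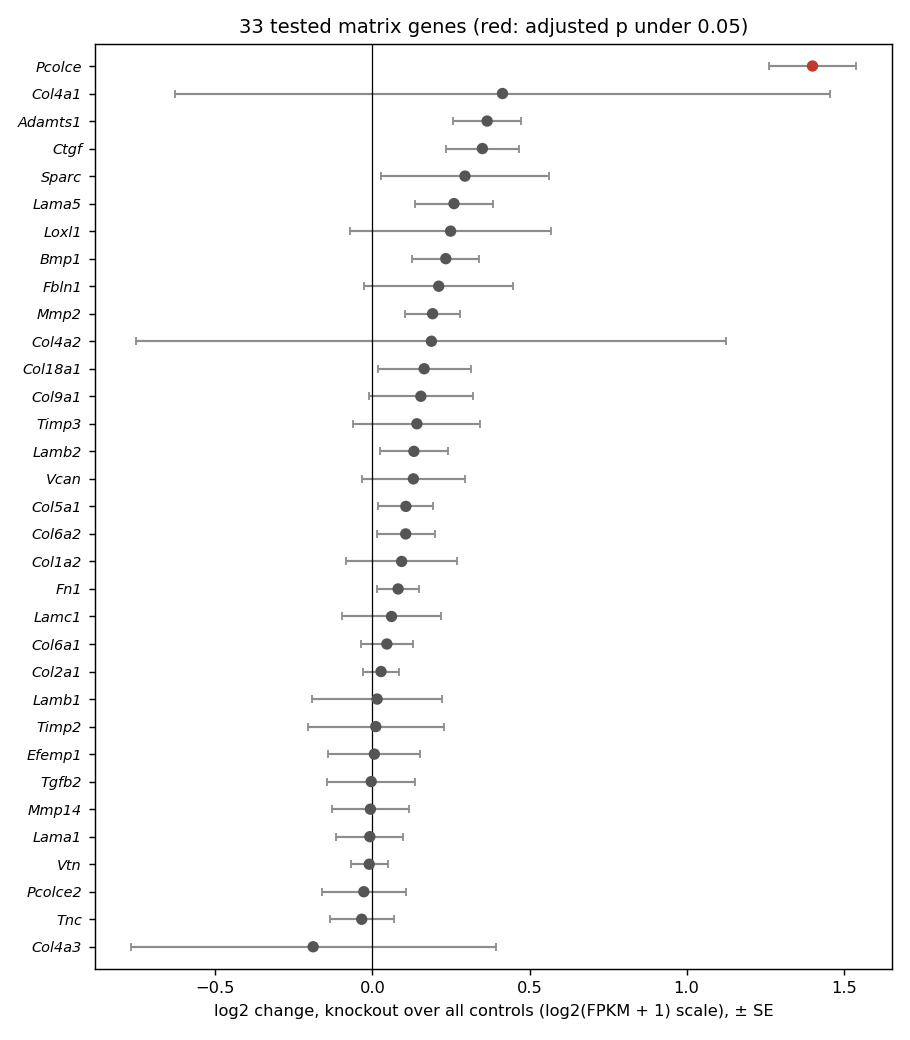
Fitted log2 change of the 33 tested matrix genes, 3 knockout over 4 control libraries, on the log2(FPKM + 1) scale, with standard errors. Red marks an adjusted p under 0.05 in limma. Pcolce stands at 1.40, and the next values are 0.41 for Col4a1, with a standard error of 1.04, and 0.37 for Adamts1.

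Pcolce, which encodes procollagen C-endopeptidase enhancer 1, had 16.6, 13.2 and 12.7 FPKM in the knockout libraries, 6.20 and 4.37 FPKM in the heterozygous libraries, and 4.18 and 4.30 FPKM in the wildtype libraries. All 3 knockout values exceeded all 4 control values, and the lowest knockout value was above the highest control value, that of the lens-rich heterozygous 1. The recovered reads behind them were 837, 713 and 665 in knockout, 335 and 218 in heterozygous, and 234 and 248 in wildtype libraries. The knockout mean was 14.2 ± 2.08 FPKM (SD, n = 3) and the mean of all controls 4.76 ± 0.962 FPKM (SD, n = 4), a 2.97-fold difference. By limma the log2 change was 1.40 ± 0.14 (SE, adjusted p = 0.00494). This call held in all 16 alternatives, with log2 changes of 1.29 to 1.58 and adjusted p up to 0.0349. In bulk tissue a change in the number of cells that express a gene and a change in RNA per cell cannot be told apart.

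Against wildtype alone, the Pcolce log2 change was 1.52 ± 0.16 (limma adjusted p = 0.0201) and Pcolce was the 1 matrix gene of 33 called higher, with 0 lower, against 0.323% of all tested genes, 0.265% higher and 0.0582% lower. Against heterozygous libraries alone it was 1.28 ± 0.16 (limma adjusted p = 0.0349), again the 1 matrix gene called higher, with 0 lower, against 0.317% of all tested genes, 0.271% higher and 0.0452% lower. These calls depended on single libraries. Against wildtype the limma adjusted p was 0.0621, 0.0910 and 0.0600 without knockout 1, 2 and 3, 0.220 and 0.207 without wildtype 1 and 2, and 0.0518 without both lens-rich libraries. Against heterozygous libraries it was 0.0695 to 0.137 when any 1 of the 7 libraries was left out. The size of the difference moved less, with log2 changes of 1.41 to 1.59 against wildtype and 1.07 to 1.49 against heterozygous libraries when 1 library was left out. Heterozygous against wildtype libraries, Pcolce had a log2 change of 0.25 ± 0.17 (limma adjusted p = 0.974).

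The Pcolce difference was as large without the lens-rich libraries as with them. Within the lens-rich pair, Pcolce was 2.67-fold higher in knockout 1 than in heterozygous 1. Among the other libraries it averaged 13.0 FPKM in knockout 2 and 3 and 4.29 FPKM in heterozygous 2 and both wildtype libraries, a 3.03-fold difference. Without both lens-rich libraries the log2 change from all controls was 1.40 (limma adjusted p = 0.00838). With the level of Y-linked genes as a covariate it was 1.42 (limma adjusted p = 0.00975), while the call against wildtype was lost there (adjusted p = 0.0678).

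In GENCODE M21 annotation of GRCm38, Pcolce lies on the minus strand at chr5:137605103-137613784, with 8 merged exons that total 3823 bases. Exons of the predicted gene Gm36266 on the opposite strand overlap 112 of these bases, and exons of Fbxo24 on the same strand also overlap some. Counted gene by gene the overlaps sum to 224 bases, and a base shared with both genes would count for each. The library kit did not mark strand, so a few reads could belong to either neighbour. Fbxo24 had 1.89 ± 0.176 FPKM in knockout libraries (SD, n = 3), 1.60 ± 0.193 in heterozygous and 1.86 ± 0.0214 in wildtype libraries (SD, n = 2 each). Its log2 change of 0.08 from all controls did not pass (limma adjusted p = 0.766), and its knockout and control values overlapped.

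The promoter window of Pcolce is shown because it is the matrix gene that changed. It runs over chr5:137611355-137611654 on the minus strand of GRCm38.p6, from 250 bases before to 50 bases after the RefSeq start site. The GENCODE span of the gene begins further upstream, at 137613784, so this window lies inside that span. Capitals mark its only match to the motifs searched.
Pcolce: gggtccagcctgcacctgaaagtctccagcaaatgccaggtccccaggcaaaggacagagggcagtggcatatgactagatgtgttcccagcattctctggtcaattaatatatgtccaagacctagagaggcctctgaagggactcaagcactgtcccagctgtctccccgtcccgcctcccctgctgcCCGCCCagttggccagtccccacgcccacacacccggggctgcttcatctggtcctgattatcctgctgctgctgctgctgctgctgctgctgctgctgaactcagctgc
The capitals are a GC box, GGGCGG read on the other strand. Also searched on both strands were the CCAAT box (CCAAT), the TATA box (TATAAA), a STAT motif (TTCNNNGAA) and an AP-1 motif (TGANTCA), each with 0 matches in this window. No motif overlapped another here. A GC box occurs in 35.7% of the 32851 promoter windows of the table, a CCAAT box in 37.4%, a TATA box in 13.6%, a STAT motif in 8.30% and an AP-1 motif in 7.81%. The table has 31 windows for 26 of the matrix genes, since some genes have more than 1 start site. A GC box is in 67.7% of these 31 windows, a CCAAT box in 32.3%, a TATA box in 19.4%, a STAT motif in 9.68% and an AP-1 motif in 6.45%.

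Partners of Pcolce in collagen trimming gave smaller differences. Pcolce2, which encodes the second procollagen enhancer, had 1.11, 0.965 and 1.03 FPKM in knockout libraries, 0.750 and 1.03 in heterozygous libraries, and 1.35 and 1.22 in wildtype libraries. The knockout values lay inside the range of the controls and below both wildtype values, and the log2 change from all controls was -0.03 ± 0.13 (limma adjusted p = 0.950). Leaving out wildtype 1 or wildtype 2 turned its sign, to 0.03 and 0.01. Bmp1, which encodes the C-proteinase that Pcolce enhances, had 5.41, 4.42 and 3.88 FPKM in knockout libraries, 4.02 and 3.96 in heterozygous libraries, and 3.36 and 3.53 in wildtype libraries. Its lowest knockout value fell between the controls, and its log2 change was 0.23 ± 0.11 (limma adjusted p = 0.431). The ratio of Pcolce to Pcolce2 FPKM was 14.9, 13.7 and 12.4 in knockout libraries, 8.27 and 4.25 in heterozygous libraries, and 3.11 and 3.53 in wildtype libraries, without overlap between knockout and controls.

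Cross-linking enzymes were low or varied with the lens-rich libraries. Loxl1, a lysyl oxidase that acts in elastic fibres, had 4.54, 2.52 and 3.11 FPKM in knockout libraries, 5.63 and 1.67 in heterozygous libraries, and 2.26 and 1.99 in wildtype libraries. The highest value of the knockout group and that of the heterozygous group were each in the lens-rich library, and the log2 change from all controls was 0.25 ± 0.32 (limma adjusted p = 0.784). Lox, the founding lysyl oxidase, was under 1 FPKM in every library.

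**Figure D3:**
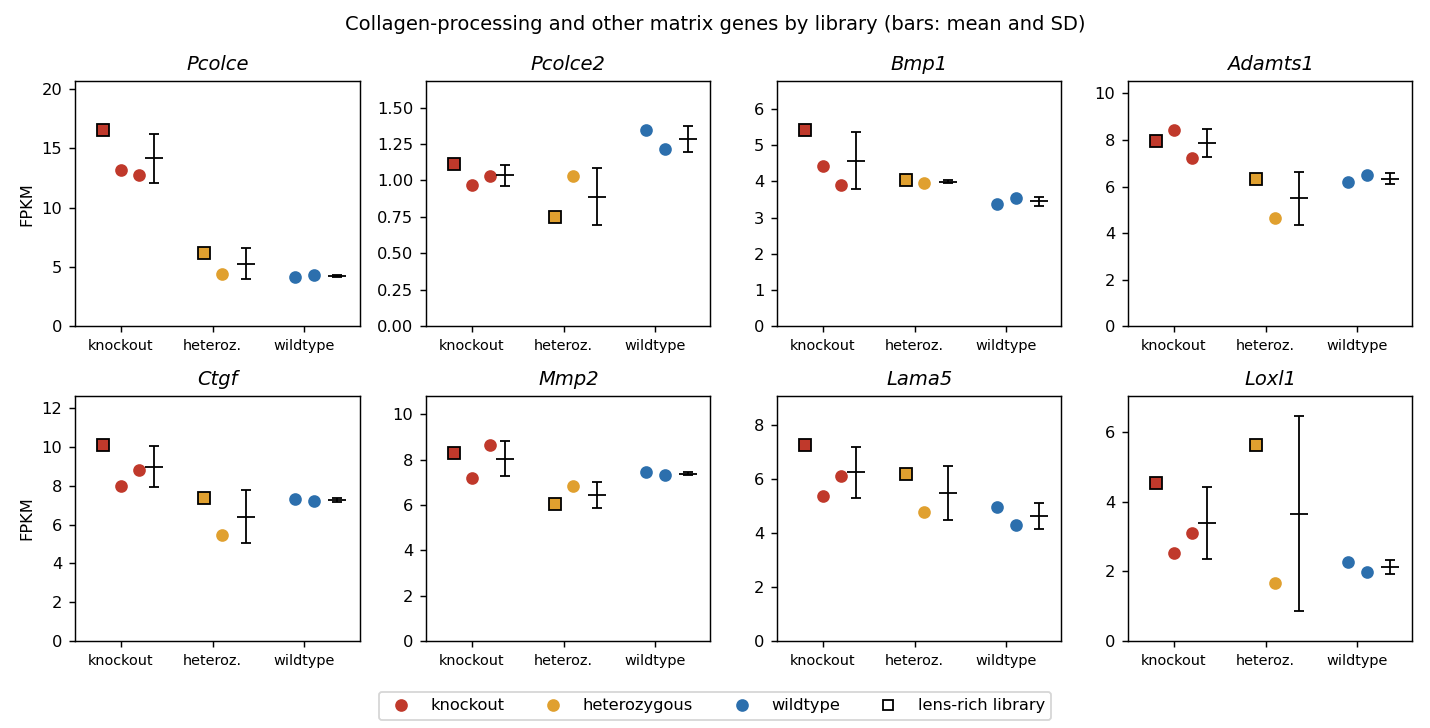
FPKM by library of 8 matrix genes, with a panel each, genotypes on the horizontal axis from knockout to wildtype, and the mean and SD of each genotype beside its points. Squares mark lens-rich libraries. Knockout points lie above all control points in the Pcolce, Adamts1 and Ctgf panels and overlap them in the other 5.

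In type IV collagen the lens-rich libraries stood far above the rest, in both genotypes that held one. Col4a1, which encodes a main chain of basement membranes, had 49.9, 7.38 and 6.0 FPKM in knockout 1, 2 and 3, 65.0 and 4.57 FPKM in heterozygous 1 and 2, and 4.96 and 5.22 FPKM in wildtype 1 and 2. Col4a2, its partner chain, had 41.2, 6.15 and 5.78 FPKM in knockout, 53.1 and 5.12 FPKM in heterozygous, and 5.94 and 5.72 FPKM in wildtype libraries. Col4a3, a chain of the more specialised network found in the kidney filter and lens capsule, had 5.73, 0.889 and 1.43 FPKM in knockout, 8.10 and 1.48 FPKM in heterozygous, and 1.54 and 1.85 FPKM in wildtype libraries. In all 3 genes knockout 1 and heterozygous 1 were high and the other 5 libraries low. Knockout and heterozygous values overlapped in each, and knockout values overlapped the wildtype values in Col4a2 and Col4a3 and lay above both of them in Col4a1. The lower of the lens-rich values was 6.77-fold the highest other value for Col4a1, 6.71-fold for Col4a2 and 3.10-fold for Col4a3.

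Between genotypes no type IV chain passed. The log2 change from all controls was 0.41 ± 1.04 for Col4a1 (limma adjusted p = 0.902), 0.19 ± 0.94 for Col4a2 (adjusted p = 0.952) and -0.19 ± 0.58 for Col4a3 (adjusted p = 0.919). Single libraries set these signs. Without knockout 1 the log2 changes of Col4a1 and Col4a2 were -0.50 and -0.68, Col4a2 was at -0.10, -0.04 and -0.06 without heterozygous 2, wildtype 1 and wildtype 2, and Col4a3 was at 0.18 without knockout 2 and 0.26 without heterozygous 1. Without both lens-rich libraries the changes were 0.37 for Col4a1 (limma adjusted p = 0.404), 0.08 for Col4a2 (adjusted p = 0.83) and -0.29 for Col4a3 (adjusted p = 0.659).

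Col4a1 and Col4a2 are transcribed away from each other, and their values moved together, so their promoter windows are shown. In RefSeq annotation of GRCm38.p6 the start sites lie 21 bases apart. The Col4a1 window is chr8:11312777-11313076 on the minus strand and the Col4a2 window chr8:11312555-11312854 on the plus strand, and capitals mark the 78 bases that both windows cover, each read on its own strand.
Col4a1: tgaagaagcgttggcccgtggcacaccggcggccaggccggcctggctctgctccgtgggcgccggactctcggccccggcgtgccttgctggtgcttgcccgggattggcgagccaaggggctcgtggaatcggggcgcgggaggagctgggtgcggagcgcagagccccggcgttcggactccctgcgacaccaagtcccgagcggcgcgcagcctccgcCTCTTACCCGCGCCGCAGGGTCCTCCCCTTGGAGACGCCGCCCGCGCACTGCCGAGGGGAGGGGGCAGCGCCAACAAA
Col4a2: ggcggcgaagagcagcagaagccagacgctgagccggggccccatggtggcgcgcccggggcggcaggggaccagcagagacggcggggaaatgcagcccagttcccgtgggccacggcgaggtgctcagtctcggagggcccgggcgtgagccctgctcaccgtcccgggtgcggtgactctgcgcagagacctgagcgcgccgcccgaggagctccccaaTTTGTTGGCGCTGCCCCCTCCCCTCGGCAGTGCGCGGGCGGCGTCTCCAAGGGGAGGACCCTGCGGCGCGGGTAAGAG
The Col4a1 window holds 1 CCAAT box and 1 GC box and the Col4a2 window 1 CCAAT box and 3 GC boxes, by the same letters as above. Their first exons overlap on opposite strands, and reads from the overlap cannot be told apart without strand. The ratio of Col4a1 to Col4a2 FPKM was 1.21, 1.2 and 1.04 in knockout libraries, 1.23 and 0.893 in heterozygous libraries, and 0.836 and 0.913 in wildtype libraries.

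Beyond type IV collagen, the lens-rich libraries stood above the other 5 in many matrix genes. Both knockout 1 and heterozygous 1 exceeded all 5 other libraries in 12 of the 33 tested genes and lay below all of them in 0, against 6.86% of all tested genes above and 6.28% below. The 12 were Loxl1, Col1a2, Col4a1, Col4a2, Col4a3, Lama1, Lama5, Lamb1, Lamc1, Sparc, Timp2 and Mmp14. Both were at least 2 times the highest other value in 3, the type IV chains, against 0.511% of all tested genes. The mean log2 level of the lens marker list was 6.42 in knockout 1, 5.99 in heterozygous 1 and 0.62 to 1.72 in the other 5 libraries. Knockout 1 and heterozygous 1 were also the 2 highest libraries for the stromal fibroblast list (1.85 and 1.81, against 1.31 to 1.53 in the other 5). Within it Ogn, Pdgfra, Dcn and Lum were higher in both than in all the others. Prelp, Fmod, Mgp, Col12a1, Dpt and Kera overlapped the others, with Mgp at 4.84 and 1.97 FPKM against 3.97 to 5.85. The pericyte and smooth muscle list was also highest in these 2 libraries (1.85 and 1.93, against 1.2 to 1.73). So was the corneal epithelium list (0.76 and 0.58, against 0.17 to 0.57), but heterozygous 1 (0.576) barely exceeded heterozygous 2 (0.575). Only 1 of its 8 genes averaged 1 FPKM or more. Of that list only Aldh3a1 was higher in both than in all the others, and Krt15 was at 1.97 and 0.561 FPKM against 0.188 to 2.04. Both libraries were also highest for the pigment epithelium and melanocyte list (3.46 and 3.28, against 1.76 to 2.92). Within it Pmel, Dct, Tyrp1, Mlana, Tyr, Mitf and Slc45a2 were higher in both than in all the others. Ttr, Rgr, Rpe65, Rdh5, Lrat and Best1 overlapped the others, with Rpe65 at 12.8 and 6.66 FPKM against 3.75 to 12.9. Acta2, a smooth muscle actin gene, was at 18.1 and 29.6 FPKM in knockout 1 and heterozygous 1 and 1.19 to 12.5 FPKM in the others. Of the same list, Myh11 and Pdgfrb were also higher in both than in all the others. Rgs5, Notch3, Abcc9, Kcnj8, Tagln and Cspg4 overlapped the others, with Rgs5 at 10.3 and 10.3 FPKM against 9.34 to 12.7. The separate part of each of these lists in the matrix values was not tested.

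The comparison of knockout with all controls was repeated without both lens-rich libraries, and then in all 7 with a term for lens marker level. Pcolce was the 1 matrix gene of 33 called by limma each time. Without both libraries the log2 change was 0.36 ± 0.13 for Loxl1 (limma adjusted p = 0.524), 0.30 ± 0.06 for Sparc (adjusted p = 0.229) and 0.25 ± 0.09 for Lama5 (adjusted p = 0.529). It was 0.39 ± 0.14 for Adamts1 and 0.30 ± 0.13 for Ctgf (limma adjusted p = 0.524 and 0.575), and 0.02 ± 0.09 for Lamb1 and 0.08 ± 0.12 for Timp2 (adjusted p = 0.972 and 0.882). With the term for lens marker level, the log2 change was 0.21 ± 0.27 for Col4a1, 0.0050 ± 0.19 for Col4a2 and -0.30 ± 0.14 for Col4a3 (limma adjusted p = 0.754, 0.995 and 0.408).

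**Figure D4:**
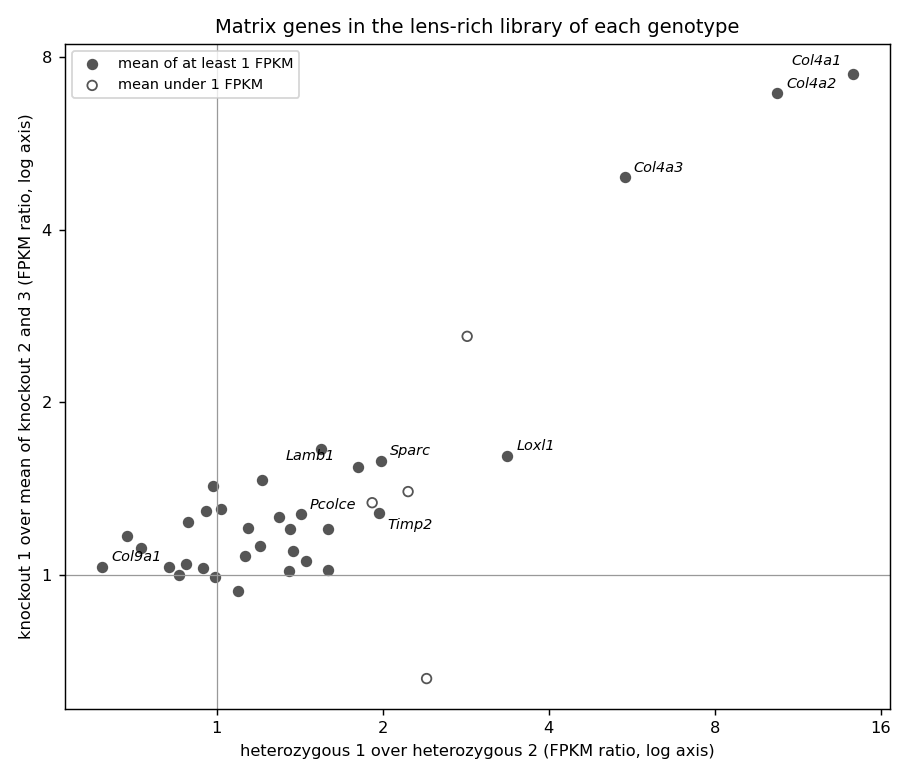
Ratio of FPKM in the lens-rich library to the other libraries of the same genotype, with knockout 1 over the mean of knockout 2 and 3 on the vertical axis and heterozygous 1 over heterozygous 2 on the horizontal axis, both on log axes. Each point is 1 matrix gene, and open points have a mean under 1 FPKM. Col4a1 (7.47 and 14.2), Col4a2 (6.92 and 10.4) and Col4a3 (4.94 and 5.49) lie at the upper right, and Pcolce lies among the other genes at 1.28 and 1.42.

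The other collagen chains gave no call between genotypes. Col2a1, the main fibrillar collagen of cartilage and vitreous, had 10.4, 10.7 and 10.3 FPKM in knockout libraries, 9.74 and 9.80 in heterozygous libraries, and 11.1 and 10.4 in wildtype libraries. Col9a1, which decorates type II collagen fibrils, ranged over 20.6 to 25.5 FPKM in knockout libraries, 15.5 and 25.0 in heterozygous libraries, and 19.4 and 24.7 in wildtype libraries, and its lowest value was in the lens-rich heterozygous 1. The spread of Col9a1 within the heterozygous pair was wider than the gap between genotypes. Col6a1, a chain of beaded filaments, ranged over 20.8 to 21.5 FPKM in knockout libraries and 17.3 to 22.01 FPKM in controls. Col18a1, whose fragment is endostatin, averaged 12.7 ± 2.44 FPKM in knockout libraries (SD, n = 3) and 11.1 ± 1.67 in all controls (SD, n = 4). Col5a1, Col6a2 and Col1a2 had knockout means of 3.00, 2.15 and 1.38 FPKM and control means of 2.73, 1.93 and 1.22 FPKM. In this group of 10 tested collagen chains limma called 0, with 0 at an unadjusted p under 0.05, and the log2 changes from all controls ran from -0.19 to 0.41.

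Laminin chains, which form the other network of basement membranes, were at 1 to 10 FPKM. Lama5 had 7.27, 5.37 and 6.13 FPKM in knockout libraries, 6.19 and 4.78 in heterozygous libraries, and 4.98 and 4.31 in wildtype libraries. Its knockout values lay above both wildtype values and overlapped the heterozygous ones, and the log2 change from all controls was 0.26 ± 0.13 (limma adjusted p = 0.452). Lamb1 had 4.91, 3.02 and 3.35 FPKM in knockout, 5.58 and 3.09 in heterozygous, and 2.96 and 3.37 in wildtype libraries, and its 2 highest values were those of the lens-rich libraries. Lama1, Lamb2 and Lamc1 had knockout means of 1.91, 5.78 and 5.31 FPKM and control means of 1.93, 5.20 and 5.13 FPKM. Of the 5 laminin chains limma called 0 against all controls, with 0 at an unadjusted p under 0.05.

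Glycoproteins and proteoglycans gave 0 calls among 7 tested genes against all controls, with 0 at an unadjusted p under 0.05. Sparc, a collagen-binding glycoprotein, had 117, 74.1 and 73.1 FPKM in knockout, 113 and 56.7 in heterozygous, and 59.7 and 62.1 in wildtype libraries. Its knockout values were above both wildtype values, its 2 highest values were in the lens-rich libraries, and its log2 change from all controls was 0.29 ± 0.27 (limma adjusted p = 0.688). Fbln1, which encodes the elastic fibre protein fibulin 1, had 24.5, 12.1 and 22.2 FPKM in knockout libraries, 16.9 and 17.2 in heterozygous libraries, and 18.4 and 12.5 in wildtype libraries, so the knockout libraries held both the highest and the lowest value. Efemp1, which encodes fibulin 3, averaged 19.6 ± 4.31 FPKM in knockout libraries (SD, n = 3) and 19.3 ± 1.84 in all controls (SD, n = 4). Fibronectin gene Fn1 averaged 4.34 ± 0.276 FPKM in knockout libraries and 4.05 ± 0.199 in all controls, and Vcan, which encodes the proteoglycan versican, 2.13 ± 0.441 and 1.87 ± 0.493 FPKM in the same order. Tnc, which encodes tenascin C, a matrix protein known for its rise at sites of injury, had 2.58, 2.46 and 2.31 FPKM in knockout, 2.38 and 2.11 in heterozygous, and 2.73 and 2.96 in wildtype libraries. The knockout values of Tnc lay below both wildtype values and overlapped the heterozygous ones.

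Among proteases and their inhibitors, Adamts1, which encodes a protease of proteoglycans, had 7.96, 8.42 and 7.21 FPKM in knockout libraries, 6.30 and 4.67 in heterozygous libraries, and 6.18 and 6.50 in wildtype libraries. All knockout values were above all control values, and the difference did not pass (log2 change 0.37 ± 0.11, limma adjusted p = 0.266). Mmp2, which encodes gelatinase A, had 8.30, 7.19 and 8.66 FPKM in knockout, 6.05 and 6.86 in heterozygous, and 7.44 and 7.34 in wildtype libraries. Knockout 2 lay below both wildtype values, and the log2 change was 0.19 ± 0.09 (limma adjusted p = 0.435). Mmp14, the membrane-bound activator of Mmp2, averaged 2.61 ± 0.103 FPKM in knockout libraries (SD, n = 3) and 2.66 ± 0.582 in all controls (SD, n = 4). Inhibitor Timp2 had 26.1, 19.1 and 21.5 FPKM in knockout, 32.7 and 16.6 in heterozygous, and 19.0 and 22.1 in wildtype libraries, with its 2 highest values in the lens-rich libraries. Timp3, an inhibitor bound to the matrix under the pigment epithelium, ranged over 6.65 to 12.9 FPKM in knockout libraries and 7.73 to 10.8 FPKM in controls. Exons of Syn3 on the opposite strand overlap 1733 bases of Timp3, so its values are uncertain without strand.

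Of the growth factors, Ctgf, which encodes a secreted matrix protein of the CCN family, had 10.1, 8.0 and 8.79 FPKM in knockout libraries, 7.37 and 5.44 in heterozygous libraries, and 7.34 and 7.19 in wildtype libraries. The knockout values were all above the control values, and the log2 change of 0.35 ± 0.12 did not pass (limma adjusted p = 0.311). On the opposite strand, exons of Gm15270 overlap 665 of the 2861 exon bases of Ctgf, so its values are also uncertain without strand. Tgfb2, the more abundant TGF-beta gene here, had 10.9, 11.4 and 10.01 FPKM in knockout, 14.4 and 9.04 in heterozygous, and 9.98 and 10.3 in wildtype libraries, with the highest value in the lens-rich heterozygous 1. Tgfb1 stayed under 1 FPKM throughout.

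Counted by range alone, knockout values of 10 matrix genes lay above both wildtype values and those of 2 below, against 13.5% of all tested genes above and 14.7% below, or 28.2% in all. The 2 below were Pcolce2 and Tnc. Against the heterozygous pair 5 genes lay above and 0 below, against 15.3% of all tested genes above and 14.5% below, or 29.8% in all. Heterozygous against wildtype libraries, 7 lay above and 5 below, against 14.3% above and 15.7% below, or 30.0% in all. There limma called 0 of 33, against 0% of all tested genes, and voom called 0. Before adjustment 0 matrix genes were below 0.05, against 619 of all 15472 tested genes. In that comparison 20 of the 33 log2 changes were above 0, with a median of 0.16, and the median over all tested genes was -0.01. The heterozygous and the wildtype libraries are shared between these comparisons, so their values are not independent.

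The wider matrix was read through 7 lists of 202 other genes, of which 141 were tested. Against all controls limma called 2 of the 141, both higher and both in the list of proteases and inhibitors. Over all tested genes 0.614% were called, 0.465% higher and 0.149% lower. The median log2 change over the 141 was 0.05. A2m, which encodes the broad protease inhibitor alpha-2-macroglobulin, had 7.76, 5.90 and 6.43 FPKM in knockout libraries, 2.38 and 1.79 in heterozygous libraries, and 1.00 and 1.13 in wildtype libraries. The groups did not overlap, and the log2 change was 1.60 ± 0.19 (limma adjusted p = 0.0132). Without knockout 1, 2 or 3 the A2m adjusted p was 0.0743, 0.0573 and 0.0623, and over the 7 libraries left out in turn the log2 change was 1.49 to 1.74. Ctss, which encodes the lysosomal protease cathepsin S of microglia and macrophages, averaged 15.3 ± 2.72 FPKM in knockout libraries (SD, n = 3) and 6.73 ± 0.709 in all controls (SD, n = 4), with a log2 change of 1.07 ± 0.12 (limma adjusted p = 0.0118). Without knockout 2 or 3 the Ctss adjusted p was 0.0575 and 0.0623, and the log2 change was 0.98 to 1.21 when 1 library was left out. Without both lens-rich libraries both genes were called, A2m at 1.65 and Ctss at 1.19 (limma adjusted p = 0.0336 and 0.0205).

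Markers of other cell states moved with genotype beside these genes. The reactive glia list, with 13 of 13 genes averaging 1 FPKM or more, had a mean log2 level of 3.38 to 3.69 in knockout, 2.08 to 2.41 in heterozygous and 2.03 to 2.09 in wildtype libraries. The microglia list, with 10 of 14 genes at that level, stood at 2.09 to 2.14 in knockout, 1.55 in both heterozygous and 1.53 to 1.57 in wildtype libraries. Both lists were higher in every knockout library than in every control, as Pcolce, A2m and Ctss were, and their part in these results was not tested. A2m is itself a gene of the reactive glia list and Ctss of the microglia list. Not every gene followed its list: Vim and Lcn2 of the reactive glia list and Cd68 of the microglia list overlapped between knockout and control libraries. Vim was at 40.0 to 80.7 FPKM in knockout libraries and 73.9 FPKM in heterozygous 1, and Cd68 was highest in heterozygous 1, at 2.76 FPKM. The stromal fibroblast list, with 7 of 10 genes at that level, ranged over 1.31 to 1.85 in knockout, 1.51 to 1.81 in heterozygous and 1.38 to 1.51 in wildtype libraries, so the groups overlapped. Its corneal marker Kera was listed at 0 in 5 libraries, and Dcn was at 1.90, 0.0607 and 0.238 FPKM in knockout, 3.74 and 1.02 in heterozygous, and 0.0234 and 1.77 in wildtype libraries. The pigment epithelium and melanocyte list ranged over 2.03 to 3.46 in knockout, 2.74 to 3.28 in heterozygous and 1.76 to 2.92 in wildtype libraries. In the same groups the pericyte and smooth muscle list ranged over 1.24 to 1.85, 1.57 to 1.93 and 1.2 to 1.73. The endothelium list ranged over 1.53 to 1.69, 1.53 to 1.58 and 1.60 to 1.66. The Mueller glia list was at 5.63 to 5.71 in knockout, 5.50 to 5.6 in heterozygous and 5.54 to 5.62 in wildtype libraries. It too was higher in every knockout library than in every control, but narrowly (5.627 in knockout 3, 5.623 in wildtype 1). Within it Crym and Apoe were higher in every knockout library than in every control, Abca8a was lower, and the other genes overlapped. Crym was at 23.853, 27.8 and 21.975 FPKM in knockout libraries and 11.432 to 13.227 FPKM in controls. The part of this list in the matrix results was also not tested. The corneal epithelium list, with 1 of 8 genes at that level, was at 0.17 to 0.76, 0.57 to 0.58 and 0.30 to 0.32 in the same groups.

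Against all controls the other 6 wider lists had 0 genes called by limma, where 0.614% of all tested genes were called. Over all 15472 tested genes, 1891 had an unadjusted p below 0.05 in this comparison, and voom called 150 of 14788. Of 19 other collagen genes tested, 1 had an unadjusted p below 0.05 and 0 passed in voom, and the 3 with the smallest p were Col8a1, a collagen of Descemet's membrane, with 2.36 FPKM in knockout and 1.52 in control libraries, Col19a1 with 0.927 and 1.26, and Col20a1 with 9.86 and 11.1. Of 21 genes of collagen synthesis and cross-linking, 2 were at that level, with 0 by voom. The prolyl 3-hydroxylase genes P3h3 and P3h1 averaged 16.3 and 4.11 FPKM in knockout and 13.5 and 3.64 FPKM in control libraries, and the procollagen N-proteinase gene Adamts3 14.7 and 12 FPKM in knockout and control libraries. The log2 changes of those 6 genes lay between -0.23 and 0.41, and the limma adjusted p was at least 0.211.

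Of 13 basement membrane genes, 2 had an unadjusted p below 0.05, against 1891 of all 15472 tested genes, and 0 passed in voom. Agrn, which encodes agrin, averaged 31.3 FPKM in knockout and 26.0 FPKM in control libraries, and Egflam, which encodes pikachurin of the photoreceptor synapse, 33.9 and 29.9 FPKM (limma adjusted p = 0.200 and 0.293). Of 30 glycoproteins and proteoglycans, 5 had such an unadjusted p and 0 passed in voom. Impg2, a proteoglycan of the matrix between photoreceptors, averaged 58.8 FPKM in knockout and 49.7 in control libraries (limma adjusted p = 0.147). Spock3 averaged 9.83 FPKM in knockout and 11.9 FPKM in control libraries (limma adjusted p = 0.233), and the basement membrane gene Smoc1 4.39 and 5.10 FPKM (adjusted p = 0.525).

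Of 19 TGF-beta and CCN genes, 2 had an unadjusted p below 0.05, against 1891 of all 15472 tested genes, and 0 passed in voom. Wisp1, a CCN gene, averaged 6.55 FPKM in knockout and 11.8 FPKM in control libraries, with a log2 change of -0.73 (limma adjusted p = 0.222), and Smad7, an inhibitor of TGF-beta signalling, 3.26 and 2.6 FPKM (adjusted p = 0.353). The receptor gene Acvrl1 averaged 1.86 FPKM in knockout and 2.28 in control libraries (limma adjusted p = 0.531). Of 16 matrix receptor genes, 3 had such an unadjusted p and 1 passed in voom, against 150 of 14788 genes in voom. That gene was Itga4, an integrin subunit that binds fibronectin, with 10.1 FPKM in knockout and 7.44 in control libraries and a log2 change of 0.40 (limma adjusted p = 0.0715, voom adjusted p = 0.0113). Itgb8, an integrin that activates TGF-beta, averaged 4.42 FPKM in knockout and 2.90 in control libraries, and the collagen receptor gene Ddr1 27.8 and 22.2 FPKM (limma adjusted p = 0.242 and 0.374).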

How the data were processed

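The deposited table gives FPKM per gene for 7 libraries; the authors aligned reads with TopHat2 2.0.9 and Bowtie2 2.0.6, and used HTSeq and DESeq, with the mouse build mm10, per the submitters' processing notes, which give no role for each tool. The kit did not mark strand. The 15472 of 54532 genes that averaged 1 FPKM or more entered limma 3.58.1 (R 4.3.3) as log2(FPKM + 1), with an intensity trend and Benjamini-Hochberg adjustment at 0.05. A model of 3 genotypes (4 residual degrees of freedom) and a model of knockout against all controls (5 residual degrees of freedom) were fitted. Fold changes on this scale understate those of low genes. With GENCODE M21 lengths, 96.8% of values came out as whole reads within 0.01 of a read, and voom on those reads was an alternative. Alternatives also changed the pseudocount to 0.1, the filter to none or 5 FPKM, the scale to TPM, added a replicate block, a lens or a Y-linked covariate, and left out each library or both lens-rich ones. Scripts were tested on simulated data. All 37 members were reported, with every library's values for Pcolce, Pcolce2, Bmp1, called members, the 6 with the smallest p against all controls and those at least 2 times higher in both lens-rich libraries; further members were given by library after their values were seen. Of each wider list the called genes, or the 3 with the smallest p, were named, except 1 gene that is not reported here. Members and lists were chosen with earlier results of these data known. Promoter sequences are from RefSeq, GRCm38.p6. Counting precision is limited by the reads behind each value.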

Additional observations from a re-analysis of the deposited data

Results flagged for a closer look

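In 10 of the 37 genes, 1 of the 4 control libraries stood apart from the other 3, by a gap whose share of the whole range exceeded the 95% critical value of Dixon's test for 4 samples; chance gives about 1 such flag in 20 groups, and genes within a library are not independent. In 9 of the 10 the library was the lens-rich heterozygous 1, at the high end. There Col4a1 was at 65.0 FPKM (4.57 to 5.22 in the other 3 controls), Col4a2 at 53.1 (5.12 to 5.94), Col4a3 at 8.10 (1.48 to 1.85) and Loxl1 at 5.63 (1.67 to 2.26). Sparc was at 112.6 FPKM (56.7 to 62.1 in the others), Lamb1 at 5.58 (2.96 to 3.37), Mmp14 at 3.53 (2.30 to 2.43) and Col1a2 at 1.73 (0.996 to 1.12). Pcolce was at 6.20 FPKM there and at 4.18 to 4.37 FPKM in the other controls, and remained below the lowest knockout value of 12.7 FPKM. The tenth was Ctgf, with heterozygous 2 low at 5.44 FPKM, against 7.19 to 7.37 FPKM in the other controls.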

How the results depend on the processing

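Against all controls, Pcolce was called under every alternative listed in the methods. Its calls against wildtype and against heterozygous libraries held in 8 and 5 of 16 alternatives. The matrix genes called fell to 0 against wildtype with a replicate block, without both lens-rich libraries and with the Y-linked covariate, and were 0 to 1 when 1 library was left out. Against heterozygous libraries they were 0 with no filter, with the block, without both lens-rich libraries and with the Y-linked covariate, and 0 to 0 when 1 library was left out. Over all genes, the count called against wildtype (50) was 28 on the TPM scale, 77 by voom, 3 with the block, 3 without both lens-rich libraries, 28 with the lens covariate, 33 with the Y-linked covariate and 5 to 53 when 1 library was left out. The count against heterozygous libraries (49) was 76 by voom, 0 with the block, 0 without both lens-rich libraries and 14 to 40 when 1 library was left out. Heterozygous against wildtype (0, with 619 at an unadjusted p under 0.05 and 0 by voom) it was 19 with no filter and 0 to 3 when 1 library was left out. Against all controls (95) it was 63 on the TPM scale, 150 by voom, 38 with the block, 48 without both lens-rich libraries and 45 to 90 when 1 library was left out. The cause of these moves was not tested beyond the smaller samples.

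Of 547 alternative values for 35 named log2 changes, 496 kept their direction and side of the threshold, 41 no longer passed, 1 newly passed (Itga4 by voom, 0.45) and 9 turned sign, all against all controls on leaving out 1 library: Pcolce2 (0.032 without wildtype 1, 0.0055 without wildtype 2; -0.11 to 0.032 over the 7 libraries), Col4a1 (-0.50 without knockout 1; -0.50 to 1.28), Col4a2 (-0.68 without knockout 1, -0.10 without heterozygous 2, -0.04 without wildtype 1, -0.06 without wildtype 2; -0.68 to 0.95) and Col4a3 (0.18 without knockout 2, 0.26 without heterozygous 1; -0.74 to 0.26). For deviations from group means, same-numbered knockout and heterozygous libraries correlated at 0.43 for number 1, the lens-rich pair, and 0.271 for number 2. Knockout 3 and heterozygous 2, of unlike numbers, were at 0.253. Same-numbered pairs with a wildtype library did not pass 0.1 (0.0919 and -0.0176 for number 1, -0.0233 and -0.0176 for number 2). In a group of 2 libraries the deviations mirror each other, so these values are not independent and do not settle pairing. The numbers were not taken as pairs. Knockout 3 has no partner of its number, so the replicate block gave its values no weight in the change. With that block Pcolce had a log2 change of 1.47 from all controls (limma adjusted p = 0.0349) and 1.59 from wildtype (adjusted p = 0.0919), and A2m and Ctss were not called against all controls (adjusted p = 0.129 and 0.0823). Genes with few reads, such as Lox and Col3a1, limit what can be said at this depth.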

Other observations

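Type IV collagen genes outside the list of 37 were looked at after the values of Col4a1 to Col4a3 were seen. Col4a5 had 10.1, 4.26 and 5.00 FPKM in knockout libraries, 12.4 and 5.45 in heterozygous libraries, and 4.22 and 4.31 in wildtype libraries. Col4a4, the partner of Col4a3, had 5.79, 1.5 and 2.16 FPKM in knockout, 7.03 and 1.96 in heterozygous, and 1.80 and 2.23 in wildtype libraries. Col4a6 had 4.51, 1.46 and 1.43 FPKM in knockout, 4.49 and 1.41 in heterozygous, and 1.07 and 1.51 in wildtype libraries. In each of the 3 genes the lens-rich knockout 1 and heterozygous 1 held the 2 highest values.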
